A study of Homo sapiens with 16 samples.

Results

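The genes followed here are 9 transcription factors of the intestinal epithelium, chosen by name: CDX1, CDX2, HNF4A, HNF4G, GATA6, KLF5, ISX, ATOH1 and SOX9. They were found by symbol in the table of FPKM values and matched by Ensembl identifier to the table of read counts, which held 63677 gene identifiers. Of the 9 genes, 7 had reads and entered the tests over 17464 genes. The libraries came from SW480 and SW620 cells, established human colon carcinoma lines grown in DMEM with serum. Each line has a parental group, a group transduced with empty vector and a group transduced with ERB (estrogen receptor beta, encoded by ESR2). A further pair of SW620 groups, both carrying ERB, received DMSO or 10 nM estradiol (E2) for 24 h. This gave 8 groups of 2 libraries, numbered I and II, and 16 libraries in all. The labels do not say whether the transduced cells were pools or clones, which promoter drove ERB, or whether I and II were separate cultures, so p-values measure only the spread between these libraries, which may be technical.

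CDX1 and CDX2 are homeodomain factors that set and maintain intestinal identity, and HNF4A and HNF4G are nuclear receptors that act with them on genes of the absorptive brush border. GATA6 is a zinc finger factor of the endoderm and KLF5 a Krüppel-like factor of proliferating crypt cells, whereas ISX is a gut homeodomain factor that represses vitamin A uptake. ATOH1 is needed for the secretory lineages, and SOX9, a WNT target in the crypt base, marks progenitor cells.

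The sequences upstream of CDX2, HNF4A and ISX are given because these are the 3 genes called between groups in the fit of all 16 libraries. Other members were called only in other fits. Each run is the 250 bases before a RefSeq transcription start in GRCh38.p14, read 5′ to 3′ along the gene, with matches to the searched motifs in capitals. HNF4A has 2 starts in the table on chromosome 20, plus strand: chr20:44355449-44355698 is the first and chr20:44400989-44401238 the second. The CDX2 run is chr13:27969316-27969565 on the minus strand, and the ISX run is chr22:35065908-35066157 on the plus strand.
HNF4A, first start: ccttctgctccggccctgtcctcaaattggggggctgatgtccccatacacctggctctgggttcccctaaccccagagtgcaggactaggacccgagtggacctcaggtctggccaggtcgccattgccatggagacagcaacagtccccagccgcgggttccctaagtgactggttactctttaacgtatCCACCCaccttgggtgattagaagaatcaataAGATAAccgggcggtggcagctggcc
HNF4A, second start: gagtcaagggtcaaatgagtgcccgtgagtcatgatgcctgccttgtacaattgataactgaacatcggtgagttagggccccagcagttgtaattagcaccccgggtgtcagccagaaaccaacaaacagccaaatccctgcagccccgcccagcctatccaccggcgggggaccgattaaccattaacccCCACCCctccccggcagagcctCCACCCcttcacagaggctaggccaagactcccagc
CDX2: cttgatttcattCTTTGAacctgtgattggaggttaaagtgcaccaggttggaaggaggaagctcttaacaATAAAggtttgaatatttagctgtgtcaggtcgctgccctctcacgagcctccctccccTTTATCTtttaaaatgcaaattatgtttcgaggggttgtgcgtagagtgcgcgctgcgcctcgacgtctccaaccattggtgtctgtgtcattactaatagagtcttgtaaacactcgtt
ISX: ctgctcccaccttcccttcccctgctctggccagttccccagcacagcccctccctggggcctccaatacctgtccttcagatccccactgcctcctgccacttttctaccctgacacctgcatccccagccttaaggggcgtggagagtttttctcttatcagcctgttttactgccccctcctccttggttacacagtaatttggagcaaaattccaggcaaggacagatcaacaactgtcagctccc

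Both strands were searched, and the share of all 35116 promoter runs of this length that hold each motif is given beside it. The letters TTTAT stood for CDX factors and were found in 32.7% of runs. CAAAGT stood for HNF4 receptors, with 10.3% of runs. For GATA factors AGATAA was used, which 9.17% held. KLF factors were represented by CCACCC, in 31.3% of runs. The letters for TCF/LEF factors were CTTTGA, in 11.2%. A single estrogen receptor site, AGGTCA, was in 12.1% of runs and the full palindromic estrogen response element in 0.0399%. The CDX2 run held 2 matches to the CDX letters, 1 to the TCF/LEF letters and 1 to the GATA letters, which overlaps the second CDX match. The run of the first HNF4A start held 1 GATA and 1 KLF match, and that of the second start held 2 KLF matches. The ISX run held no match. None of the 4 runs held the single estrogen receptor site or the full element. The table had entries for 6 of the 9 genes. GATA6, KLF5 and ATOH1 are not printed, and CDX1, HNF4G and SOX9 had none.

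Total counts per library were 12743940 to 18948283. ESR2 had 100 to 187 reads in the 8 libraries labelled ERB and 0 to 4 in the other 8. The transduced SW480 libraries did not carry the profile of their parental line. Outside the members, 300 genes reached 5 CPM in both parental SW480 libraries and exceeded both parental SW620 libraries there by 8-fold or more. Their median level, as a share of parental SW480, was 1.41% to 2.02% in the 10 SW620 libraries, 2.1% and 2.2% in the libraries labelled SW480 empty vector, and 17.1% and 21% in those labelled SW480 ERB. The 35 genes that set parental SW620 apart in the same way stood at 28.8% to 66.2% of their parental SW620 level in the 4 transduced libraries labelled SW480. They were at 4.58% and 5.59% in parental SW480 and at 47.2% to 110% in the 10 SW620 libraries. Each comparison of a transduced library labelled SW480 with parental SW480 rests on these libraries, so a change of line identity and an effect of transduction cannot be told apart there. The balance of genes with low and high GC content also varied. The median log2 deviation of the tested genes with at most 41.6% GC minus that of genes with at least 58.1% GC ran from -3.05 to 2.51. Libraries differed beyond counting noise within all 8 groups, with a chi-square per degree of freedom from 7.2 in SW620 ERB to 280 in SW480 empty vector. Keratins were abundant (KRT8 at 1480 to 9350 CPM), whereas the defining markers COL3A1 (fibroblast), PECAM1 (endothelial), TP63 (squamous epithelium) and AFP (liver) had no read. The summed level of 6 fibroblast markers was 3.15 to 11.8 CPM in SW480 and 2.06 to 8.55 in SW620 libraries, that of 6 leukocyte markers 0.716 to 2.27 and 0.664 to 4.86, and that of 4 endothelial markers 0.587 to 2.48 and 0.534 to 1.66. The 6 stomach and oesophagus markers summed to 15 to 37.3 CPM in SW480 and 29 to 59 in SW620 libraries, mostly from SOX2, and the 3 liver markers to 0 to 0.44 and 0.329 to 1.1.

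CDX1 and ATOH1 had 0 reads in all 16 libraries, which allows up to 0.0119 CPM for either over the 251234604 reads together, taking 3 reads as the limit that a count of 0 allows and covering counting error only. In single libraries that limit was 0.158 to 0.235 CPM. Neither the factor paired with CDX2 nor the switch of the secretory lineage was therefore detectable at this depth in either line. CDH17, a cadherin of the intestinal epithelium used as a marker of colon epithelium, was at 0 to 8.47 CPM.

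On the length-scaled FPKM values of the authors, which allow levels of different genes to be compared, the medians over the 16 libraries were 58.8 FPKM for KLF5, 34.4 for HNF4A, 20.6 for SOX9 and 10.1 for CDX2. ISX at 1.79, GATA6 at 0.522 and HNF4G at 0.458 FPKM were low. The FPKM of KLF5 varied 26.1-fold between libraries, whereas its CPM varied 6.63-fold. The place of KLF5 above HNF4A and SOX9 holds only on the FPKM values, since the median CPM per kilobase of transcript was 28.4 for HNF4A, 26.2 for SOX9, 19.1 for KLF5 and 3.75 for CDX2. All levels from here on are CPM (reads scaled to a common library size, here with TMM factors), given as library I and then library II. They show differences of 1 gene between groups and not levels between genes. In bulk RNA, fewer cells with a transcript and less RNA per cell cannot be told apart.

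**Figure D1:**
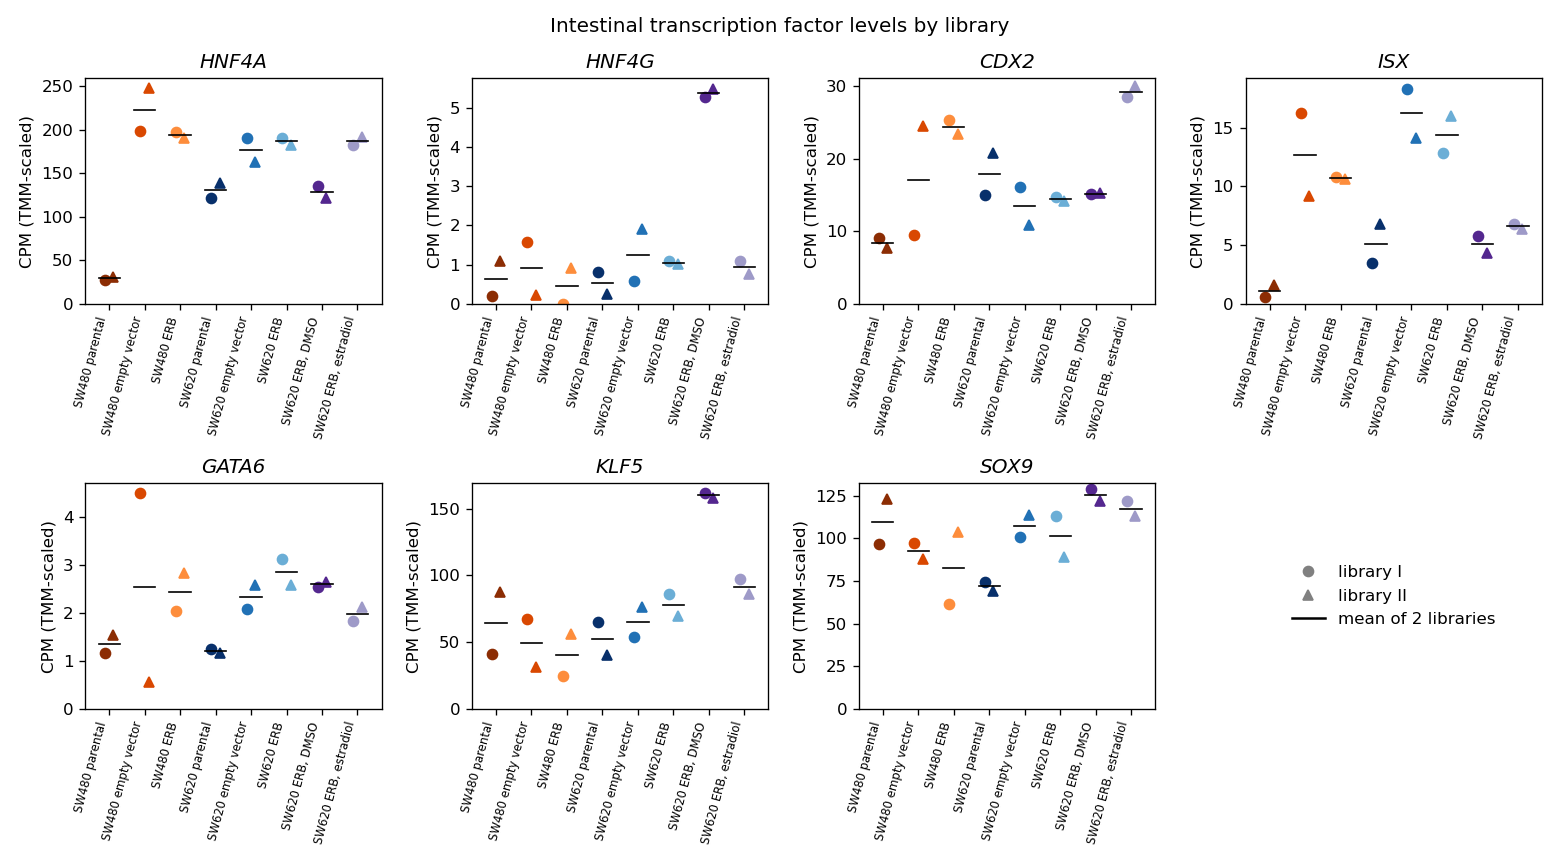
TMM-scaled CPM on linear axes from 0 for the 7 members with reads, by group, with circles for library I, triangles for library II and a line at the mean of the 2. HNF4A was lowest in both parental SW480 libraries (27.7 and 30.6 CPM), and HNF4G and KLF5 were highest in both DMSO libraries.

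HNF4A and ISX, the nuclear receptor of absorptive cells and the repressor of vitamin A uptake, were higher in parental SW620 than in parental SW480. HNF4A stood at 122 and 139 CPM in parental SW620 and at 27.7 and 30.6 in parental SW480. The groups were far apart relative to their spread (log2 fold change 2.16, SE 0.24, adjusted p = 0.00011 by the quasi-likelihood test of edgeR, adjusted by Benjamini-Hochberg over all genes, as for each adjusted p here). ISX stood at 3.47 and 6.77 CPM against 0.556 and 1.61 (difference of 2.2 on the log2 scale, SE 0.52, adjusted p = 0.011). Its parental SW480 values rest on 9 and 37 reads. In this comparison 2 of 7 tested members were called higher and 0 lower, beside 18% of all genes called, 6.84% higher and 11.2% lower. CDX2, at 15 and 20.8 CPM against 9.02 and 7.72, missed the threshold (log2 fold change 1.1, SE 0.41, adjusted p = 0.084), although its libraries did not overlap. SOX9 was at 74.7 and 69.4 CPM against 96.5 and 123 (log2 fold change -0.61, adjusted p = 0.16). KLF5, GATA6 and HNF4G overlapped between the lines. With GC and length offsets CDX2 (0.91, adjusted p = 0.0064) and SOX9 (-0.65, adjusted p = 0.027) were called as well. In a fit of the 4 parental libraries alone HNF4A was called (2.14, adjusted p = 0.02) and ISX was not (2.18, adjusted p = 0.11). That fit called 440 of 15976 genes higher and 1042 lower. On log2(FPKM + 1) ISX was not called either (0.77, adjusted p = 0.17). Without parental SW620 library II the call of ISX was lost as well, with its log2 fold change over the libraries left out in turn between 1.64 and 3.18.

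Genes that these factors are known to act on were counted from lists chosen with earlier results known, so they are no independent evidence of direction. Of 36 intestinal target genes of CDX and HNF4 factors, 15 passed the filter on low counts. Of these, 7 were higher and 1, TMEM37, lower in parental SW620, beside 6.84% of all genes higher and 11.2% lower. Their median log2 fold change was 2.35 against -0.05 over all genes. The filter used all 16 libraries, so a gene near 0 in parental SW480 could pass through other groups. The median can lean upward for that reason and does not describe the whole list. The same shares of all genes stand beside the other lists of this paragraph. The gene of villin, VIL1, an actin bundler of the brush border, stood at 532 ± 71.8 CPM (SD, n = 2) against 104 ± 7.91. CDHR2, a protocadherin that links microvilli, was at 18.9 ± 2.29 against 0.373 ± 0.0903, and USH1C, its cytoplasmic anchor, at 207 ± 54.3 against 29.9 ± 3.11. Of 21 tested other gut transcription factors 7 were higher and 4 lower, among them VDR, PRDM1 and LEF1. The pioneer factor FOXA2 was at 79.4 ± 16.8 against 13.8 ± 2.28 CPM. LEF1, a nuclear partner of beta-catenin, ran the other way at 2.91 ± 0.515 against 39.8 ± 11.4, as did PRDM1, a repressor of the fetal gut, at 4.47 ± 0.26 against 33 ± 9.09. Although ATOH1 had no read, 5 of 9 tested genes from the list of secretory genes downstream of it were higher (GFI1, DLL4, TFF3, CHGA and CHGB) and 1, DLL3, lower. The goblet cell trefoil factor TFF3 was at 103 ± 39.4 against 4 ± 0.944 CPM, and CHGB, an enteroendocrine granule protein, at 15.4 ± 2.27 against 1.42 ± 0.526. Of 13 tested SOX9 and WNT-linked progenitor genes 5 were higher (ASCL2, EPHB2, EPHB3, SMOC2 and PROM1) and 2 lower (CD44 and LEF1), while SOX9 itself was not called. Of 2 tested ISX targets, BCMO1, the vitamin A forming enzyme that ISX is known to repress, was called higher together with ISX. The names of called genes beyond the rule in the methods were added after their values were seen.

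In cells labelled SW480, the libraries with empty vector had HNF4A and ISX above the parental level. HNF4A was at 198 and 248 CPM with empty vector against 27.7 and 30.6 in parental cells (log2 fold change 2.94, SE 0.24, adjusted p = 2.7e-05). ISX was at 16.2 and 9.13 CPM against 0.556 and 1.61 (3.51, SE 0.53, adjusted p = 0.00078). No library of either group overlapped the other for these genes. The background was wide, with 30.9% of all genes called, 14.9% higher and 16% lower, and 2 of 7 members called. CDX2 in the same groups was at 9.54 and 24.5 CPM against 9.02 and 7.72, so that its empty vector libraries stood 2.57-fold apart (log2 fold change 1.02, SE 0.41, adjusted p = 0.073). Those libraries also differed in GC balance, at 0.83 for library I and -2.7 for library II, and with offsets for GC and length in the fit the log2 fold change of CDX2 was 0.51 (adjusted p = 0.083). With these offsets HNF4G, with 21 and 2 reads in the empty vector libraries against 3 and 25, was called higher at 2.24 (adjusted p = 0.013), against 0.51 without them (adjusted p = 0.71). DESeq2 called CDX2 (1.03, adjusted p = 0.048). Without empty vector library I, CDX2 was called (1.54, adjusted p = 0.0026), and GATA6, at 4.51 and 0.557 CPM in the pair, turned from 0.94 to -1.28 (adjusted p = 0.047). Without empty vector library II GATA6 was called higher instead (1.71, adjusted p = 0.0071). In a fit of the 6 SW480 libraries alone the call of HNF4A held (adjusted p = 0.028) and that of ISX was lost (3.51, adjusted p = 0.052). That fit called 107 of 16031 genes higher and 597 lower. On log2(FPKM + 1) the difference of ISX was 1.37 (adjusted p = 0.016).

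With ERB in cells labelled SW480 the picture against parental cells was similar, and CDX2 was called too. HNF4A was at 197 and 190 CPM (difference on the log2 scale 2.73, SE 0.24, adjusted p = 0.00031) and ISX at 10.8 and 10.6 CPM (difference 3.27, SE 0.53, adjusted p = 0.0023). CDX2 was at 25.3 and 23.4 CPM against 9.02 and 7.72 (1.54, SE 0.41, adjusted p = 0.015). These 3 of 7 members stand beside 44.4% of all genes called, 19.5% higher and 24.9% lower. In a fit of the 6 SW480 libraries alone none of the 3 passed, with adjusted p of 0.099 for HNF4A and ISX and 0.17 for CDX2. Of all 16031 genes tested in that fit 0 were called. The call of CDX2 was also lost without parental library II (1.43, adjusted p = 0.12) and without ERB library I (1.42, adjusted p = 0.098), whereas those of HNF4A and ISX held in 4 of 4 fits without 1 library. The ERB libraries had the lowest GC balance values of their line together with empty vector library II, at -3.05 and -1.27. With GC and length offsets the log2 fold change of CDX2 was 0.87 (adjusted p = 0.0086), and HNF4G, with 0 and 12 reads in the ERB libraries, turned from -0.38 to 2.37 (adjusted p = 0.021). This comparison shares its parental libraries with the empty vector comparison, so the 2 sets of values are not independent.

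**Figure D2:**
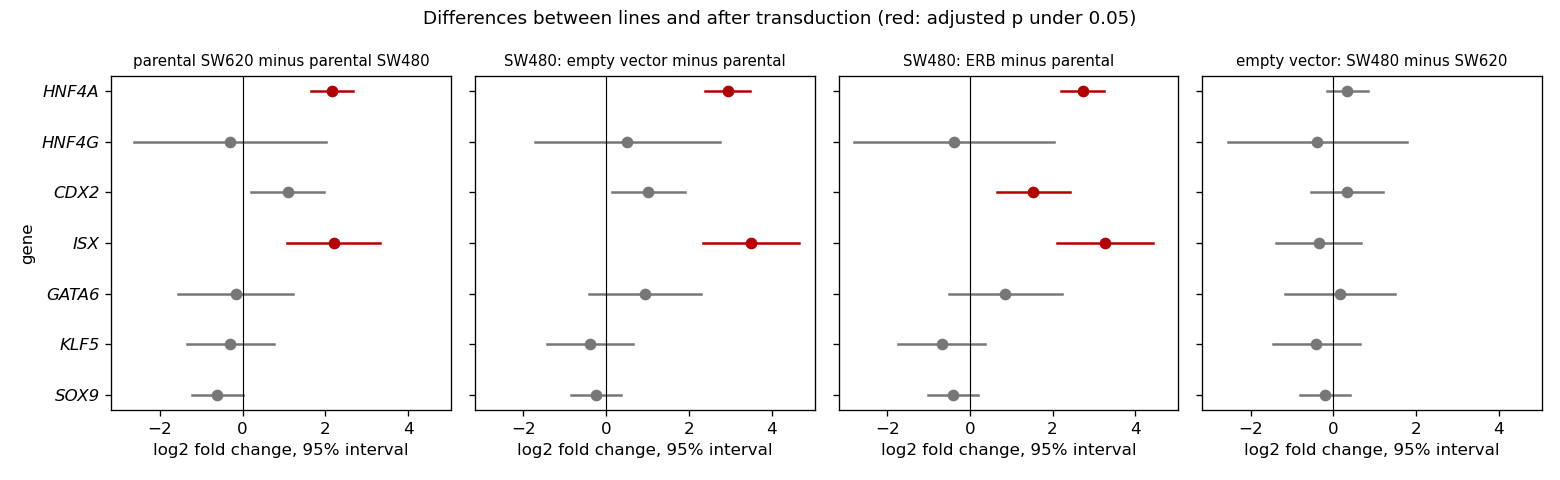
Log2 fold changes on the horizontal axes with 95% intervals for the 7 tested members in 4 comparisons of 2 against 2 libraries from the fit of all 16; red marks an adjusted p under 0.05. HNF4A and ISX were called in the first 3 panels, CDX2 in the third, and no member in the comparison of the 2 empty vector groups.

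The list of CDX and HNF4 target genes was counted in these libraries too, and the filter on low counts limits its medians here in the same way. With empty vector, 9 of its 15 tested genes were higher and 1, TMEM37, lower than in parental SW480 (median log2 fold change 2.65 against -0.11 over all genes). With ERB it was 12 higher and 0 lower (2.8 against -0.13). Of all genes, 14.9% were higher and 16% lower with empty vector, and 19.5% higher and 24.9% lower with ERB. These shares stand beside each list count of this paragraph. VIL1 reached 631 ± 29.9 CPM (SD, n = 2) with empty vector and 610 ± 63.4 with ERB, from 104 ± 7.91. ESPN, an actin bundling protein of microvilli, was at 119 ± 137 with empty vector and 82.2 ± 34.8 with ERB, from 6.43 ± 1.82. Of the other gut transcription factors 7 of 21 were higher with empty vector and 4 lower (KLF4, VDR, PRDM1 and LEF1), with FOXA2 at 118 ± 60.3 against 13.8 ± 2.28 CPM and LEF1 at 4.75 ± 1.68 against 39.8 ± 11.4. With ERB these counts were 7 and 6. FOXA3, another forkhead factor of the endoderm, was at 102 ± 73.9 CPM with empty vector and 86.8 ± 38.7 with ERB, from 7.38 ± 2.48. The secretory list had 3 genes higher (GFI1, DLL4 and TFF3) and 2 lower (DLL3 and CHGA) of 9 with empty vector, and the same 3 higher and 0 lower with ERB. With ERB, 3 of 9 called is below the 44.4% called over all genes. The progenitor list had 4 higher (ASCL2, EPHB2, EPHB3 and SMOC2) and 3 lower (AXIN2, CD44 and LEF1) of 13 with empty vector, and the same genes in the same directions with ERB. In it, the WNT-regulated receptor gene EPHB2 was at 397 ± 24 CPM with empty vector against 81.5 ± 17.7, and the hyaluronan receptor gene CD44 at 3.92 ± 1.14 against 86.4 ± 26.5. The share of these changes that goes with the loss of the parental SW480 profile, described above, was not tested.

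In SW620 no member was called between empty vector and parental cells, where 0% of all genes were called and 276 genes had an unadjusted p under 0.05. Among the members 1 had such a p, namely ISX at 18.3 and 14.1 CPM against 3.47 and 6.77 (log2 fold change 1.67, SE 0.49, adjusted p = 1 by edgeR). DESeq2 and limma-voom called no member either. HNF4A was at 191 and 163 CPM against 122 and 139 (log2 fold change 0.44, 95% interval -0.05 to 0.93). When SW620 libraries were fitted alone with offsets for GC and length, ISX was called higher (1.68, adjusted p = 0.0064). The change of HNF4A with empty vector differed between the lines by 2.5 on the log2 scale (SE 0.33, adjusted p = 0.0015 for the interaction in edgeR). That was the call of 1 of 7 members, beside 7.2% of all genes. For ISX this difference was 1.85 (SE 0.69, adjusted p = 0.12) and for CDX2 1.43 (SE 0.57, adjusted p = 0.14). In the fit of only the 4 groups compared, the adjusted p for HNF4A was 0.091, with 0 of 16573 genes called higher and 21 lower. With GC and length offsets CDX2 was called too (0.96, adjusted p = 0.042).

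Between ERB and empty vector no member was called by edgeR's test in either line. In SW620, HNF4A was at 190 and 183 CPM with ERB against 191 and 163 with empty vector (log2 fold change 0.08, 95% interval -0.42 to 0.57). CDX2 was at 14.8 and 14.2 against 16.1 and 10.9 CPM (0.1, interval -0.77 to 0.97), and ISX at 12.8 and 16 against 18.3 and 14.1 (-0.18, interval -1.2 to 0.84). The libraries overlapped for HNF4A, CDX2 and ISX. In SW480 the 2 groups also held different shares of the parental SW480 profile, 17.1% and 21% with ERB against 2.2% and 2.1% with empty vector, so an effect of ERB and that difference cannot be told apart there. The log2 fold change of HNF4A in these groups was -0.21 (interval -0.7 to 0.28), that of ISX -0.24 (-1.28 to 0.79) and that of CDX2 0.52 (-0.35 to 1.4). Of 7 members 0 were called in either line, with 0 at an unadjusted p under 0.05 and 0 by DESeq2 or limma-voom. Over all genes 0.00573% were called in SW620 and 1.1% in SW480. The difference of the ERB effect between the lines was called for 0 members and for 0.189% of all genes, again with 0 members at an unadjusted p under 0.05. Of the lists, 1 gene was called with ERB in SW480 and none in SW620, namely CD44 at 17.7 ± 2.03 CPM (SD, n = 2) against 3.92 ± 1.14 (log2 fold change 2.17, SE 0.33, adjusted p = 0.0071). The libraries labelled SW480 empty vector stood at about the level of SW620 libraries in the parental SW480 profile, so only the labels make the following values, and the ERB and vector effects between lines, differences between the lines. Between the groups labelled empty vector, HNF4A was at 198 and 248 CPM in SW480 against 191 and 163 in SW620 (log2 fold change 0.33, interval -0.16 to 0.83). No member was called there, 0 had an unadjusted p under 0.05, and 0.326% of all genes were called. From the lists PROM1 (0.786 ± 0.482 against 17.8 ± 7.81 CPM), CD44 (3.92 ± 1.14 against 13.8 ± 0.122) and CHGB (1.23 ± 0.486 against 7.59 ± 1.63) were lower in the libraries labelled SW480. The intervals do not exclude differences below about their bounds, and values that miss the threshold are not shown to be equal.

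HNF4G and KLF5 had their highest levels in the DMSO libraries of SW620 cells with ERB. HNF4G, the paralog of HNF4A, was at 5.28 and 5.48 CPM with DMSO (124 and 95 reads) against 1.08 and 1.02 in untreated cells and 1.1 and 0.752 with estradiol. KLF5 was at 162 and 158 CPM with DMSO, 85.6 and 69.2 untreated and 97.3 and 85.7 with estradiol. For both genes the DMSO libraries lay above all others of the series. HNF4A ran the other way, at 135 and 122 CPM with DMSO against 190 and 183 untreated and 182 and 192 with estradiol. ISX was lower after both treatments, at 5.79 and 4.33 CPM with DMSO and 6.78 and 6.39 with estradiol against 12.8 and 16 untreated. CDX2 was highest with estradiol, at 28.5 and 30 CPM, against 15.1 and 15.3 with DMSO and 14.8 and 14.2 untreated. SOX9 was at 129 and 122, 122 and 113, and 113 and 89.4 CPM, and GATA6 at 2.55 and 2.65, 1.83 and 2.13, and 3.13 and 2.59 CPM with DMSO, with estradiol and untreated.

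In the fit of all 16 libraries none of these differences passed. For DMSO against untreated cells 0 of 7 members were called by edgeR, beside 6.15% of all genes, and 3 had an unadjusted p under 0.05: ISX (log2 fold change -1.5, SE 0.48, adjusted p = 0.078), HNF4G (2.35, SE 0.93, adjusted p = 0.13) and HNF4A (-0.54, SE 0.23, adjusted p = 0.15). DESeq2 called 1, ISX at -1.44 (adjusted p = 0.018). For estradiol against DMSO 0 members and 0% of all genes were called by edgeR, while 3469 genes and 3 members had an unadjusted p under 0.05. The 3 were CDX2 (0.95, SE 0.4), HNF4A (0.54, SE 0.23) and HNF4G (-2.53, SE 0.94), each with an adjusted p of 0.24, and DESeq2 and limma-voom called no member. For estradiol against untreated cells, a comparison added after the values were seen, 0 members and 1.73% of all genes were called. Of the members 2 had an unadjusted p under 0.05, CDX2 (1.01, adjusted p = 0.25) and ISX (-1.12, adjusted p = 0.29), and 0 were called by DESeq2.

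That fit shares 1 estimate of the spread over both lines. In a fit of the 10 SW620 libraries alone, DMSO against untreated cells had 2 members higher, HNF4G (2.35, SE 0.48, adjusted p = 0.0036) and KLF5 (1.05, SE 0.25, adjusted p = 0.0073). ISX (-1.5, SE 0.31, adjusted p = 0.0039) and HNF4A (-0.54, SE 0.14, adjusted p = 0.012) were lower, and 48.8% of all genes were called. For estradiol against DMSO, CDX2 (0.96, SE 0.23, adjusted p = 0.0086) and HNF4A (0.55, SE 0.14, adjusted p = 0.011) were higher and HNF4G (-2.52, adjusted p = 0.0069) and KLF5 (-0.79, adjusted p = 0.023) lower, beside 53% of all genes. Against untreated cells the estradiol libraries had CDX2 higher (1.02, SE 0.23, adjusted p = 0.012) and ISX lower (-1.11, SE 0.31, adjusted p = 0.029), beside 20.9% of all genes. An effect of estradiol and one of the 24 h treatment as a whole cannot be told apart in that comparison. ISX was lower with DMSO too, and its difference between estradiol and DMSO was 0.39 (adjusted p = 0.31). With so large a share of genes called, 4, 4 and 2 of 7 members are not set apart from the rest. These comparisons share libraries, so they are not independent of each other. Libraries of the 2 groups were also left out 1 at a time in this fit. For DMSO the log2 fold change then ran from 2.3 to 2.42 for HNF4G and from 0.9 to 1.2 for KLF5. ISX ran from -1.68 to -1.22 and HNF4A from -0.57 to -0.38. For estradiol against DMSO, HNF4G ran from -2.82 to -2.27, CDX2 from 0.86 to 0.99, HNF4A from 0.38 to 0.59 and KLF5 from -0.92 to -0.7. Against untreated cells CDX2 ran from 0.99 to 1.06 and ISX from -1.27 to -0.94. Apart from HNF4G with DMSO, every call was lost in 1 or more of these fits. Each such fit leaves 1 library in a group and the calls over all genes moved too, so lost calls are not particular to the members.

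**Figure D3:**
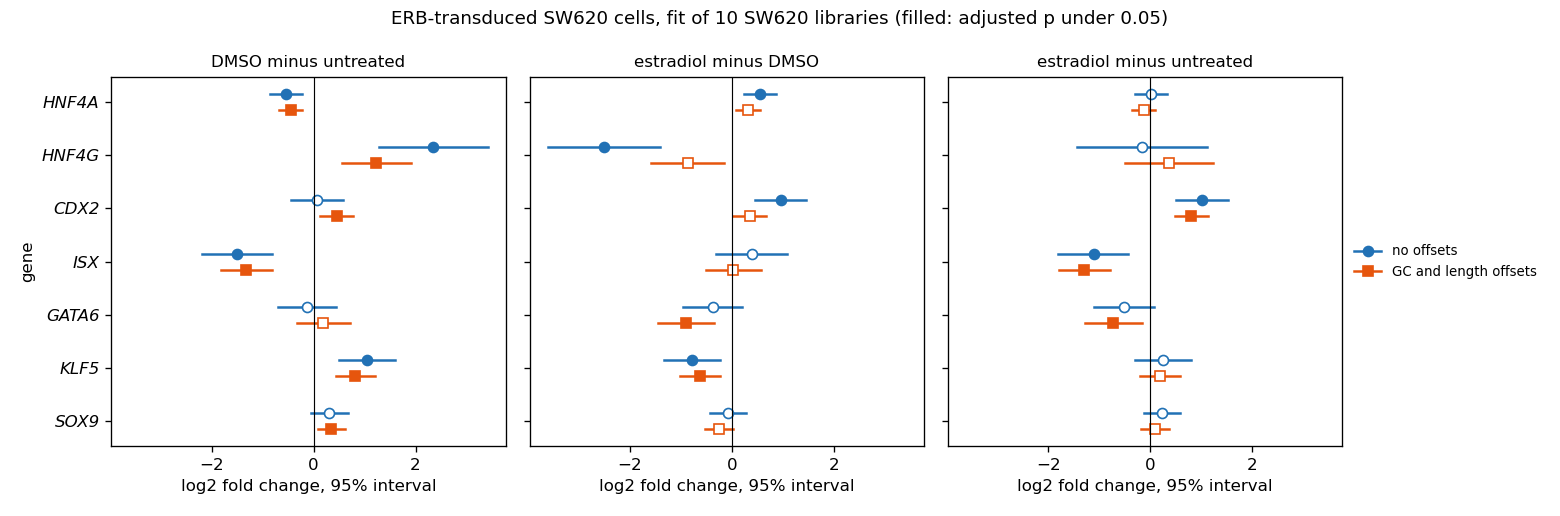
Log2 fold changes with 95% intervals on the horizontal axes in SW620 cells transduced with ERB, from the fit of the 10 SW620 libraries without offsets (blue circles) and with GC and length offsets (orange squares); filled symbols have an adjusted p under 0.05. HNF4G against DMSO moved from -2.52 to -0.87 with offsets, whereas ISX with DMSO moved only from -1.5 to -1.32.

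The treated libraries differed in GC balance as well: it was 1.59 and 2.24 with DMSO, -0.18 and -0.69 with estradiol, and -0.74 to 0.62 in the untreated SW620 libraries. HNF4G has the lowest GC content of the 7 tested members at 35.9% of its transcripts, followed by KLF5 at 47%, and CDX2 has the highest at 56.4%. With offsets for GC and length in the fit of the 10 SW620 libraries, the DMSO difference of HNF4G was 1.23 (SE 0.31, adjusted p = 0.0066) and that of KLF5 0.82 (adjusted p = 0.0029). ISX was at -1.32 (adjusted p = 0.0008) and HNF4A at -0.45 (adjusted p = 0.0049), and CDX2 (0.45, adjusted p = 0.028) and SOX9 (0.35, adjusted p = 0.036) were called higher in addition, with 48.1% of all genes called. For estradiol against DMSO only KLF5 (-0.62, adjusted p = 0.037) and GATA6 (-0.91, adjusted p = 0.036) were called, beside 16.3% of all genes. The difference of CDX2 was then 0.35 (adjusted p = 0.11), that of HNF4A 0.32 (0.059) and that of HNF4G -0.87 (0.087). Against untreated cells, with a GC balance nearer to that of the estradiol libraries, CDX2 was higher with offsets too (0.8, SE 0.15, adjusted p = 0.0014), ISX was lower (-1.29, adjusted p = 0.0011) and GATA6 was lower (-0.72, adjusted p = 0.041), beside 40% of all genes. With and without offsets in the fit of the 10 SW620 libraries, the log2 fold change of CDX2 with estradiol against untreated cells was 0.8 and 1.02. That of ISX was -1.29 and -1.11. With 1 library left out and no offsets, CDX2 ran from 0.99 to 1.06 and ISX from -1.27 to -0.94.

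**Figure D4:**
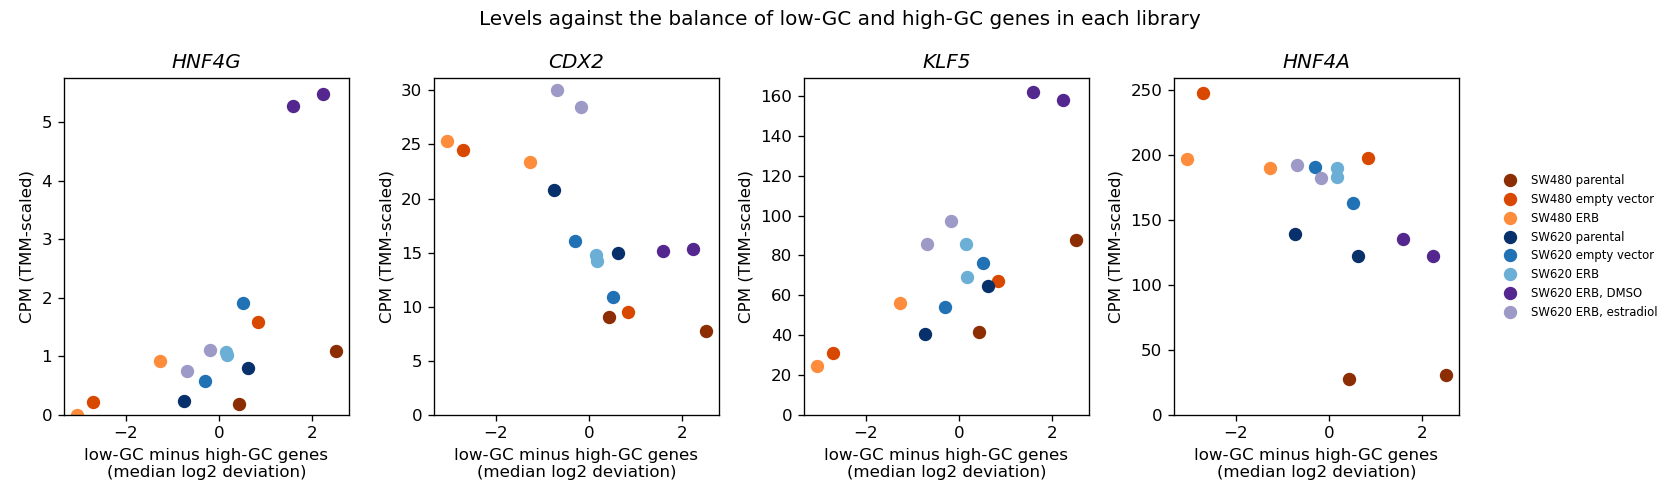
TMM-scaled CPM of HNF4G, CDX2, KLF5 and HNF4A on the vertical axes (linear, from 0) against the GC balance of each of the 16 libraries (median log2 deviation of low-GC genes minus high-GC genes), coloured by group. HNF4G and KLF5 were highest in the DMSO libraries at balances of 1.59 and 2.24, and HNF4A was lowest in parental SW480 at 0.43 and 2.51.

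Genes of the lists around these factors were counted for DMSO against untreated cells in the fit of all 16 libraries, where 6.15% of all genes were called. Of 13 tested progenitor genes 5 were lower (EPHB2, EPHB3, SMOC2, CD44 and TCF7) and 0 higher with DMSO, with a median log2 fold change of -0.89 against 0 over all genes. EPHB2 was at 79 ± 7.86 CPM against 375 ± 3.37 in untreated cells (SD, n = 2), EPHB3, its relative, at 20 ± 4.46 against 79.1 ± 2.1, and the secreted matrix protein gene SMOC2 at 27.3 ± 0.688 against 75.6 ± 0.513. Of 21 other gut transcription factors 3 were lower and 1 higher. ELF3, an ETS factor of differentiated epithelium, was at 13.1 ± 2.74 against 61 ± 1.36 CPM, HES1, a NOTCH target that represses ATOH1, at 7.7 ± 1.26 against 22.2 ± 2.32, and TCF7, a partner of beta-catenin, at 23.5 ± 2.15 against 56.3 ± 0.0166. KLF4, a factor of post-mitotic cells, was higher at 7.47 ± 0.276 against 1.87 ± 0.42. Among 15 target genes 1 was lower, a share near that over all genes, with VIL1 at 276 ± 1.33 against 597 ± 32 CPM. Of 9 secretory genes CHGB was higher (22.6 ± 1.78 against 3.83 ± 0.475 CPM) and the NOTCH ligand gene DLL4 lower (11.9 ± 2.06 against 40.4 ± 0.996). Of the 2 ISX targets 0 were called. With estradiol against DMSO no gene of any list was called by edgeR. The share of the DMSO differences that goes with the GC balance of these libraries was not tested for the lists. List counts of every comparison rest on the fit of all 16 libraries. They were not repeated with 1 library left out or in other fits.

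Over the 8 group means of log2(CPM + 1), the members fell into patterns that are given as descriptions, since the groups share cell lines and library properties such as the GC balance. HNF4A and ISX had a Pearson correlation of 0.9, and HNF4G and KLF5 one of 0.88. KLF5 and SOX9 stood at 0.8 and CDX2 and HNF4A at 0.7, whereas HNF4A and HNF4G, the 2 paralogs, stood at 0.06. Single groups lay far from the rest. The mean of HNF4G was 5.38 CPM with DMSO and 1.25 or less in every other group, and that of KLF5 was 160 with DMSO and 91.5 or less elsewhere. HNF4A was at 29.2 CPM in parental SW480 and at 128 or more elsewhere. How far these groups set the correlations was not tested. Among other genes with a mean of at least 5 CPM, HNF4A was most like SEMA4G and C15orf38 (both 0.993), ISX like LIPC (0.983) and SCD (0.977), and CDX2 like APEX1 (0.979) and ZBTB47 (0.973). KLF5 was most like ZXDB (0.993) and MXD1 (0.987), HNF4G like GRAMD3 (0.943) and NUDT4 (0.942), SOX9 like FAM120B (0.951) and WDR27 (0.937), and GATA6 like JAG1 (0.921) and RP11-983P16.4 (0.837). In the order of group means HNF4A ran from 223 CPM in SW480 empty vector to 29.2 in parental SW480, the next lowest being SW620 with DMSO at 128 and parental SW620 at 131, whose libraries overlapped. On CPM, SOX9 had the flattest profile of the 7, with a 2.09-fold range over the 16 libraries, and ISX varied 33-fold. On FPKM, CDX2 was flatter than SOX9, at 3.85-fold against 4.57-fold. GATA6, whose exons overlap those of the antisense gene GATA6-AS1 over 6.08% of their bases (0 to 4 reads), stayed at 60 reads or fewer per library, and HNF4G at 124 or fewer, which limits both.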

How the data were processed

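Poly(A) RNA of 16 libraries was sequenced from stranded kits, per the labels' protocols. The authors deposited whole-number read counts per gene and FPKM values (length-scaled levels), used as levels between genes and as an alternative on log2(FPKM + 1), with 0 other columns of per-sample values. The submitters' processing notes name Cufflinks 2.1.1, HTSeq 0.6.1, Picard 1.29, SAMtools, TopHat2 2.0.4 and the build GRCh37, and the role of each tool and the strand setting are not given in the sources used here. Groups and numbers I and II came from the labels. Counts were filtered by filterByExpr, scaled by TMM and fitted with edgeR 4.0.16 (R 4.3.3) in 1 quasi-likelihood model of the 8 groups, tested on simulated data, with genes called at an adjusted p under 0.05. SE is the log2 fold change over the square root of F. Alternatives were DESeq2 1.42.0, limma, other filters and scalings, GC and length offsets (splines with 5 degrees of freedom, from transcripts of GENCODE), 1 line only, a replicate block and libraries left out. Members and lists were chosen with earlier results of these data known. All members are named, and from each list up to 4 called genes with the smallest p per comparison at 5 CPM or more. Promoters came from RefSeq. Some items are not reported here.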

Additional observations from a re-analysis of the deposited data

Results flagged for a closer look

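The change of HNF4A between empty vector and parental cells differed between the lines by 2.5 on the log2 scale, by edgeR's test of the interaction itself (SE 0.33, adjusted p = 0.0015). HNF4A was higher with empty vector in cells labelled SW480 by 2.94 and in SW620 by 0.44, with the libraries of the groups apart in both lines. The libraries labelled SW480 empty vector held 2.1% and 2.2% of the level of genes that set parental SW480 apart, so a change of line identity and an effect of the vector cannot be told apart.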

How the results depend on the processing

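HNF4A kept its direction and call in 11 of 11 alternatives between the parental lines (log2 fold change 1.86 to 2.21), in 13 of 13 for empty vector in SW480 (2.22 to 3.02) and in 12 of 13 for ERB against parental SW480 (2.14 to 2.74), and in all fits without 1 library. Its call in the vector effect between lines held in 10 of 11. ISX was called in 7 of 11 between the parental lines (0.77 to 2.26, adjusted p up to 0.36), in 12 of 13 for empty vector in SW480 (1.37 to 3.61, up to 0.052) and in 11 of 13 for ERB against parental SW480 (1.2 to 3.41, up to 0.099). CDX2 for ERB against parental SW480 was called in 9 of 13 (0.87 to 1.55, up to 0.17) and in 2 of 4 fits without 1 library. Over 1502 member values under alternatives, 104 changed sign, 3 of them with a call on either side. With a replicate block the counts of called members stayed at 2 (parental lines), 2 and 3 (empty vector and ERB against parental SW480) and 1 (vector effect between lines), and no call changed. The deviations of same-numbered libraries had correlations from -0.74 to 0.66 over 28 pairs of groups, 9 above 0.1. Whether the numbers pair libraries across groups cannot be told from these values, because the 2 libraries of a group also differed in GC balance.

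Called members between the parental lines (2) were 4 with offsets, 1 on FPKM, 1 with the compared groups only and 1 to 2 without 1 library. For empty vector in SW480 (2) they were 3 with offsets, 3 by DESeq2, 1 with libraries of 1 line and 2 to 4 without 1 library, and in SW620 (0) 1 with 1 line and offsets. For ERB against parental SW480 (3) they were 4 with offsets, 2 with the compared groups, 1 on FPKM with no filter, 0 with 1 line, 2 with 1 line and offsets and 2 to 4 without 1 library. Between the empty vector groups (0) they were 0 to 1 without 1 library. For DMSO (0) they were 1 without a filter, 1 with offsets, 1 by DESeq2, 4 with the compared groups, 4 with 1 line, 6 with 1 line and offsets, and 0 to 3 without 1 library. For estradiol against DMSO (0) they were 1 without a filter, 4 with the compared groups, 4 with 1 line, 2 with 1 line and offsets, and 0 to 3 without 1 library. Against untreated cells (0) they were 2 with offsets, 2 with the compared groups, 2 with 1 line and 3 with 1 line and offsets. For the vector effect between lines (1) they were 2 with offsets, 0 with the compared groups and 1 to 3 without 1 library. Other causes were not tested, but fits of fewer groups and fewer libraries have another estimate of the spread by construction. The calls over all genes moved with the setting too. For DMSO 5379 genes were higher and 4906 lower of 16144 with the compared groups, and 48.8% were called with 1 line. With offsets 2154 were higher and 1865 lower of 17464. For estradiol against DMSO 4851 were higher and 5260 lower of 15896 with the compared groups, and 53% were called with 1 line.

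The sign changes follow as log2 fold changes, the value of the 16-library fit in brackets. CDX2 for the empty vector groups (0.33) was -0.51 to 0.84 without 1 library and -0.08 and -0.06 on FPKM. CDX2 for the ERB effect between lines (0.42) was -0.1 to 1.18 without 1 library. CDX2 for ERB in SW620 (0.1) was -0.15 to 0.41 without 1 library. GATA6 for DMSO (-0.13) was -0.27 to 0 without 1 library, 0.08 on FPKM, 0.2 with offsets and 0.19 with 1 line with offsets. GATA6 for the empty vector groups (0.16) was -2.08 to 0.92 without 1 library, -0.08 on FPKM and -0.39 with limma-voom. GATA6 for empty vector in SW480 (0.94) was -1.28 to 1.71 without 1 library. GATA6 for the ERB effect between lines (-0.38) was -1.22 to 1.86 without 1 library and 0.18 with limma-voom. GATA6 for ERB in SW480 (-0.09) was -0.93 to 2.14 without 1 library and 0.46 with limma-voom. GATA6 for the parental lines (-0.17) was -0.36 to 0.04 without 1 library. GATA6 for the vector effect between lines (-0.01) was -2.24 to 0.76 without 1 library. HNF4A for the empty vector groups (0.33) was -0.15 on FPKM. HNF4A for ERB in SW620 (0.08) was -0.03 to 0.19 without 1 library. HNF4A for estradiol against untreated cells (0) was -0.03 to 0.05 without 1 library (-0.02 in SW620 alone), -0.12 with offsets, 0 with the compared groups only and -0.13 with 1 line with offsets. HNF4G for the empty vector groups (-0.39) was -2.48 to 0.7 without 1 library. HNF4G for empty vector in SW480 (0.51) was -1.57 to 2.33 without 1 library and -0.04 on FPKM. HNF4G for the ERB effect between lines (-0.63) was -6.71 to 1.47 without 1 library, 0.24 and 0.29 on FPKM and 0.42 with offsets. HNF4G for ERB in SW480 (-0.89) was -6.96 to 1.2 without 1 library, 0.13 with offsets and 0.04 with 1 line with offsets. HNF4G for ERB in SW620 (-0.26) was -0.87 to 0.84 without 1 library. HNF4G for ERB against parental SW480 (-0.38) was -6.47 to 1.44 without 1 library, 2.37 with offsets and 2.24 with 1 line with offsets. HNF4G for estradiol against untreated cells (-0.18) was -0.48 to 0.08 without 1 library, 0.06 and 0.23 on FPKM, 0.37 with offsets and 0.37 with 1 line with offsets. HNF4G for the parental lines (-0.31) was -1.47 to 1.5 without 1 library, 0.31 and 1.11 on FPKM and 1.21 with offsets. HNF4G for the vector effect between lines (-0.7) was -2.78 to 1.11 without 1 library and 1.16 with offsets. ISX for the ERB effect between lines (-0.07) was -0.49 to 0.42 without 1 library and 0 on FPKM. ISX for ERB in SW480 (-0.24) was -0.66 to 0.24 without 1 library. ISX for ERB in SW620 (-0.18) was -0.35 to 0.02 without 1 library. KLF5 for the empty vector groups (-0.41) was -1.09 to 0.02 without 1 library. KLF5 for empty vector in SW480 (-0.4) was -1.07 to 0.24 without 1 library and 0.71 and 0.73 on FPKM. KLF5 for empty vector in SW620 (0.31) was 0 to 0.69 without 1 library. KLF5 for the ERB effect between lines (-0.54) was -1.31 to 0.15 without 1 library. KLF5 for ERB in SW480 (-0.29) was -1.06 to 0.39 without 1 library. KLF5 for ERB in SW620 (0.25) was -0.39 and -0.38 on FPKM. KLF5 for the parental lines (-0.3) was -0.76 to 0.34 without 1 library and 0.31 on FPKM. KLF5 for the vector effect between lines (-0.71) was 0.03 and 0.05 on FPKM. SOX9 for the ERB effect between lines (-0.07) was -0.57 to 0.2 without 1 library. SOX9 for ERB in SW480 (-0.16) was -0.65 to 0.12 without 1 library. SOX9 for ERB in SW620 (-0.09) was -0.27 to 0.07 without 1 library. The cause was not tested.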
